A study of Mus musculus with 24 samples.

Results

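The 52 mouse genes described here encode extracellular matrix proteins and the enzymes and inhibitors that remodel them: 7 matricellular and adhesive proteins, 5 lysyl oxidases, 12 collagen chains, 5 proteoglycans, 10 elastic fibre proteins, 6 matrix metalloproteinases and tissue inhibitors, and 7 other matrix proteins. They were taken from a list of gene names that used no threshold on a measured value, although the list was drawn up with earlier results of these data known. All 52 had at least 1 probe on the arrays, which held 45547 names. Of these names 22881 were gene symbols and the rest were accessions or other names of probes without a symbol. Shares of all genes below are over both kinds. Total RNA of 7 mouse cell lines was hybridised to 24 single-colour arrays, 1 sample per array. The B16F1 mouse melanoma line carrying green fluorescent protein was represented by the parental line B16F1-GFP-M (M, 3 arrays), by B16F1-GFP-D (D, 4 arrays), recovered after a year of tumour dormancy in a vaccinated mouse model, and by B16F1-GFP-DB#1 (4 arrays), B16F1-GFP-DB#2 (3 arrays) and B16F1-GFP-DB#3 (3 arrays), a second generation taken from a brain site. The myeloid lines were M0 (4 arrays) and J365 (3 arrays), which the labels describe only as myeloid cells. All lines had been grown in culture before RNA was taken, so what was measured is RNA of expanded cells and not of cells in a tissue, and each named line was a single line. Nothing in the labels says that the arrays of a line came from separate cultures, so the p-values below measure the spread between these samples, which may be technical.

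The extracellular matrix is the mesh of secreted proteins around cells. Fibrillar collagens give it tensile strength after lysyl oxidases have crosslinked them, fibulins and fibrillins build elastic fibres, and proteoglycans such as decorin, versican and brevican bind water and growth factors. Matricellular proteins such as osteopontin and thrombospondins act as signals to cells more than as building blocks, and metalloproteinases cut the mesh while TIMPs block them. In melanoma, matrix produced by the tumour cells themselves and by surrounding fibroblasts is known to affect invasion and growth.

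A value below is the normalized log2 signal, which is the log2 of the background-corrected intensity of a gene's brightest probe minus the 75th percentile of that array; a difference of 1 is a 2-fold change. A gene counts as read on an array where the scanner software marked it well above background. Where no array of a line read a gene, its fold is given as a lower bound on this scale; normexp background correction adds an offset that compresses dim signals, and under it the differences of matrix genes with such a bound, against M or between M and M0, were smaller than the bounds. Levels of different genes come from different probes and are not set against each other. Testing was limited, in each comparison, to genes read on every array of a line compared, and those whose p-value, adjusted over all genes tested, fell under 0.05 are called here (limma).

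D replicate 3 stood apart before any comparison: 89.9% of its probes were well above background, against 43.6% to 53.8% on the other 23 arrays. It read 51 of the 52 matrix genes, whereas the other 16 melanoma arrays read 27 to 35 (median 30.5). On this array the mean signal of 10 fibroblast and pericyte markers was -1.72, of 11 brain markers -1.30 and of 11 myeloid and blood markers -1.55, whereas on the other 16 melanoma arrays these means did not exceed -2.64, -2.97 and -3.18. The 8 melanocyte markers averaged 7.20 to 7.58 on those 16 melanoma arrays and 6.68 on D replicate 3, whereas the myeloid arrays had -4.45 to -4.09. Myeloid and blood markers averaged 1.09 to 1.87 in M0 and J365, so both cell types carried the markers of their labels. Comparisons with D are therefore given with and without D replicate 3.

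**Figure D1:**
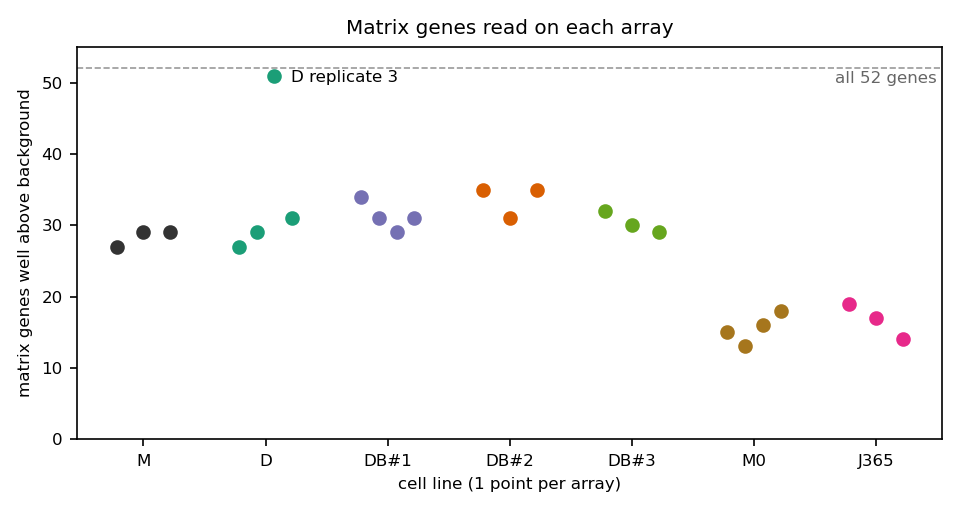
Number of the 52 matrix genes well above background on each array, 1 point per array, by cell line. The melanoma arrays other than D replicate 3 read 27 to 35 genes, D replicate 3 read 51, and the myeloid arrays read 13 to 19.

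Promoters are shown for 5 genes that were called between melanoma lines and have an entry in the RefSeq promoter table of build GRCm38.p6. The table held 34 of the 52 genes. The sequences are the 250 bases before the start site, 5′ to 3′ on the gene's own strand, and capitals mark every match on either strand to 5 motifs. These were the TATA box, searched as the letters TATAAA, and the CCAAT box, searched as CCAAT. The E-box of MYC and related factors was searched as CACGTG. The M-box core, which the melanocyte factor MITF is known to bind, was searched as CATGTG. The AP-1 site was searched as TGANTCA. None of these motifs contains another. They lie at chr7:107567183-107567432 on the plus strand for Olfml1, chr5:104434861-104435110 on the plus strand for Spp1 (the more upstream of its 2 start sites), chr3:88000357-88000606 on the minus strand for Bcan, chr6:4505368-4505617 on the plus strand for Col1a2 and chr4:130047590-130047839 on the plus strand for Col16a1.

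Olfml1: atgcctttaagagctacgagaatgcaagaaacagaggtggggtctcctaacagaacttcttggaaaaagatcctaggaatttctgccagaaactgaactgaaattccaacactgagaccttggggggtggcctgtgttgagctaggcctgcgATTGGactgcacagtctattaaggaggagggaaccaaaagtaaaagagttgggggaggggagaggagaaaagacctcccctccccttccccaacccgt
Spp1: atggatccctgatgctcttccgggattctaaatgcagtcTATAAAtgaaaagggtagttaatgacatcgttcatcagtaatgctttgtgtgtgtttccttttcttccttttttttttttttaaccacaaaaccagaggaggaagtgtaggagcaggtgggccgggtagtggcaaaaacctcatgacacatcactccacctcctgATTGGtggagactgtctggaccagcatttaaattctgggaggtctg
Bcan: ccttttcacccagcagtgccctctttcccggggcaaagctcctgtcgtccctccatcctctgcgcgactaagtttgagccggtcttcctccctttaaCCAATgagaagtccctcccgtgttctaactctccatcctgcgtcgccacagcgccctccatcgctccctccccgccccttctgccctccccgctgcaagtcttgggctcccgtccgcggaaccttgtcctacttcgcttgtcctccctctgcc
Col1a2: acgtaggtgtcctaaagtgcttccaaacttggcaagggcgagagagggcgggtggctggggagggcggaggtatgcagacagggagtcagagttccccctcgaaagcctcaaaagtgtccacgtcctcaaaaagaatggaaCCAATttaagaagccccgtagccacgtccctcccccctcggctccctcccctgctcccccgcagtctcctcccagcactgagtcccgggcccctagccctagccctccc
Col16a1: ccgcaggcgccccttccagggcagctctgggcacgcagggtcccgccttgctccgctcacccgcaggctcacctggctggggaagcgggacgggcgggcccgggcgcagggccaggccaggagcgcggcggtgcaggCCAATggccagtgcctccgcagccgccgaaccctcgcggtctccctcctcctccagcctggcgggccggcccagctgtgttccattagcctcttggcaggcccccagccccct

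Each of the 5 windows held the letters of a CCAAT box, a motif in 13 of the 44 windows of these genes (29.55%) and in 33.85% of all 32851 windows in the table. It began 98 bases before the start of Olfml1, 46 before that of Spp1, 153 before that of Bcan, 109 before that of Col1a2 and 113 before that of Col16a1. The Spp1 window also had a TATA box match 211 bases before the start, a motif in 12.37% of all windows. E-box, M-box and AP-1 letters occurred in none of the 5; over all windows their shares were 6.02%, 12.25% and 6.75%. A match is a match of letters in this window and says nothing about whether a factor binds.

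Of the 52 genes, 33 were read on every array of at least 1 line. In 10 genes this held for all 7 lines (Spp1, Loxl2, Loxl3, Col5a1, Bgn, Vcan, Bcan, Mfap4, Timp1 and Ecm1). In 13 it held for all 5 melanoma lines and for neither myeloid line (Fn1, Sparc, Thbs1, Col1a2, Col16a1, Fbln1, Fbln5, Mmp2, Mmp14, Timp2, Timp3, Aebp1 and Matn2), and in 2, Col18a1 and Mmp9, only for the myeloid lines. The other 8 were read throughout some lines only. All 6 proteases and inhibitors and 6 of 7 matricellular genes were read throughout a line, against 2 of 5 lysyl oxidases and 2 of 7 non-fibrillar collagens. The remaining 19 genes were read on every array of no line; 18 of them were read on D replicate 3, and 8 on that array and no other. The signal of Col6a3, a chain of microfibrillar collagen VI, was 1.19 on D replicate 3 and -6.52 to -3.44 on the other melanoma arrays. That of Mgp, an inhibitor of matrix calcification, was -0.94 there and -6.84 to -4.66 elsewhere in melanoma.

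Across the 8 comparisons of melanoma lines, 10 of the 31 matrix genes tested were called at least once and 21 never were, beside 8.59% of all genes tested that were called at least once. D against M asks what differs between melanoma cells recovered after dormancy and the parental line. Of 28 matrix genes tested, Olfml1 was higher and Bcan lower in D, and 26 were not called; 2.22% of all 20145 genes tested were called. Without D replicate 3, Olfml1 and Olfml3, another olfactomedin-like gene, were called and Bcan was not. In RNA of whole cultures, fewer cells making a transcript and less of it per cell cannot be told apart. The median difference was -0.13 over the matrix genes and -0.01 over all genes tested.

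The brain-derived lines differed from M in a few matrix genes each. In DB#1, Olfml1 and Spp1 rose and Bcan fell among 28 tested (3.01% of all genes called). In DB#2, Olfml1, Dcn and Spp1 rose and Matn2 fell among 31 tested (2.68% of all genes called). In DB#3, only Olfml1 rose among 27 tested (2.33% of all genes called). Median differences over the matrix genes were 0.05, -0.01 and 0.09, beside 0.04, 0.02 and 0.03 over all genes tested. These 4 comparisons share the 3 M arrays. Of 27 genes tested in all 4, Aebp1, Fbln1, Loxl3, Mmp14, Sparc, Timp2 and Vcan had a 95% interval inside a 2-fold change in both directions each time.

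**Figure D2:**
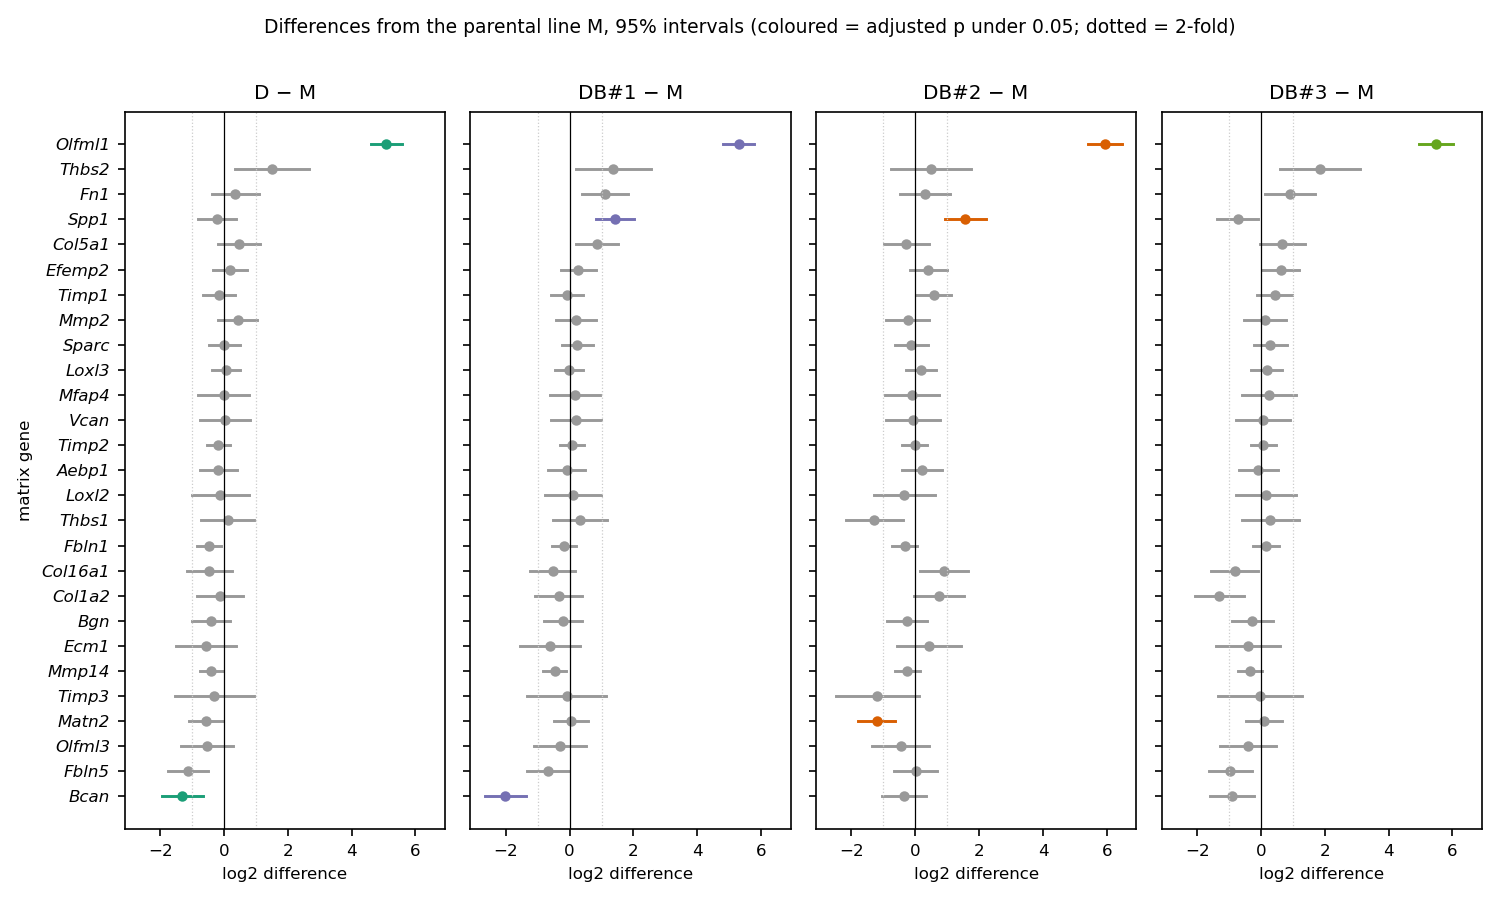
Log2 differences of D, DB#1, DB#2 and DB#3 from M (x axis) with 95% intervals for the 27 matrix genes tested in all 4 comparisons (y axis); coloured points have an adjusted p under 0.05 and dotted lines mark 2-fold. Olfml1, unread in M, lies far to the right in all panels, and 7 genes have intervals inside 2-fold in all 4.

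Set against D, the brain-derived lines had 1, 5 and 0 matrix genes called. Spp1 was higher in DB#1 than in D, the only call among 28 tested (0.371% of all genes called). No matrix gene of 28 was called between DB#3 and D by limma (0.27% of all genes called), and 5 had an unadjusted p under 0.05. Between DB#2 and D, 5 of 31 were called, all higher in DB#2: Dcn, Spp1, Col16a1, Fbln5 and Olfml1 (4.67% of all genes called). Against the mean of DB#1 and DB#3, DB#2 had higher Dcn, Col16a1, Col1a2, Spp1 and Bcan and lower Thbs1, Matn2 and Col5a1, so that 8 of 31 were called (5.37% of all genes called). For Spp1 the DB#2 arrays overlapped the DB#1 arrays, and of these 3 lines only DB#3 lay apart. For Bcan the lowest DB#2 array, at 3.93, was just above the highest DB#3 array, at 3.88, and DB#1 had the lowest mean, 2.67. For Col1a2 the lowest mean was that of DB#3, -1.58. Neither Bcan nor Col1a2 was called between DB#2 and M or between DB#2 and D. Without D replicate 3, Fbln5 was no longer called between DB#2 and D, and the calls of DB#1 and DB#3 against D were as before. None of the 5 genes called between DB#2 and D was called when limma was fitted to the arrays of those lines alone, D replicate 3 included.

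**Figure D3:**
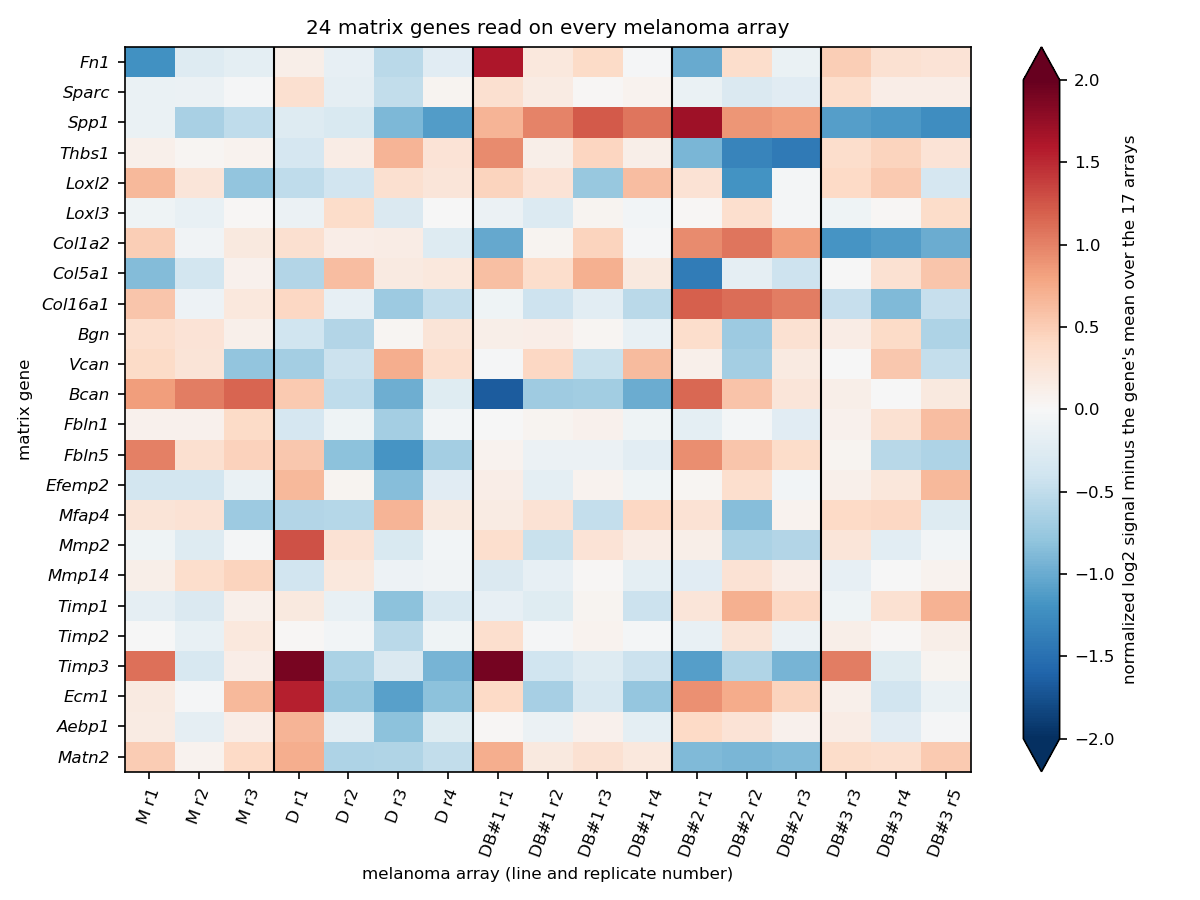
Normalized log2 signal of the 24 matrix genes read on every melanoma array, each minus its own mean over the 17 arrays (colour scale), with arrays in columns by line and replicate number. The 3 DB#2 arrays are high for Col16a1 and Col1a2 and low for Thbs1 and Matn2, and Sparc, Loxl3 and Timp2 vary little.

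Each of the called differences between melanoma lines kept its direction within each of the 3 slides, all of which held every line. Between arrays of different lines, deviations from the line means correlated at 0.49 on average within a slide. The average was -0.25 where neither slide nor replicate number was shared. With slide as a block every call between melanoma lines was kept, and Fbln5 in D against M and Thbs1, Bcan and Timp1 in DB#2 against D were added. Among the 24 genes read on every melanoma array, the line means spanned less than 1 in 13 and less than 0.5 in 8. DB#2 was the lowest line for 9 of the 24 and the highest for 7.

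Among the matricellular genes, Spp1, which encodes the secreted adhesive phosphoprotein osteopontin, separated the lines most clearly. Its signal was -1.77, -2.29 and -2.15 on the M arrays and -1.90, -1.94, -2.53 and -2.76 on the D arrays. On the DB#1 arrays it was -0.95, -0.64, -0.41 and -0.57, on the DB#2 arrays 0.05, -0.76 and -0.81, and on the DB#3 arrays -2.74, -2.78 and -2.88. Every DB#1 and DB#2 array lay above every array of the other 3 melanoma lines. Spp1 was higher than in M by 1.43 ± 0.29 (SE) in DB#1 (adjusted p = 0.00514) and by 1.57 ± 0.31 in DB#2 (adjusted p = 0.00424), and higher than in D by 1.64 ± 0.27 and 1.78 ± 0.29 (adjusted p = 0.00382 and 0.000491). Without D replicate 3 the last 2 differences were 1.56 and 1.69 (adjusted p = 0.0081 and 0.00126). Under quantile normalization Spp1 was not called in DB#1 or DB#2 against M (adjusted p = 0.202 and 0.203).

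Thbs1, thrombospondin 1, an inhibitor of new vessels that can activate latent TGF-beta, was lower in DB#2. It read -2.80, -3.21 and -3.30 on the DB#2 arrays, -0.95, -1.78, -1.47 and -1.78 on the DB#1 arrays and -1.53, -1.45 and -1.61 on the DB#3 arrays. The DB#2 arrays lay below all other melanoma arrays, which reached down to -2.24. The difference from the mean of DB#1 and DB#3 was -1.59 ± 0.36 (adjusted p = 0.0109); it was -1.66 on the second Thbs1 probe. Leaving out DB#2 replicate 2 or 3 ended the call, at an adjusted p of up to 0.0768.

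The other matricellular genes were not called between melanoma lines. Fn1, fibronectin, was between 0.52 and 3.35 on the melanoma arrays and Sparc, a collagen-binding glycoprotein, between 8.34 and 9.19. Thbs2, a relative of Thbs1, was read on every array of D, DB#1, DB#2 and DB#3, and its signal in M was -4.53, -3.65 and -3.30 against -2.75 to -1.83 in D. The groups did not overlap, and the difference of 1.49 was not called. Postn, periostin, was read throughout 3 melanoma lines, and Tnc, tenascin C, throughout none.

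Of the 12 collagen chains, Col1a2 and Col16a1 were higher and Col5a1 lower in DB#2 than in the mean of DB#1 and DB#3. Col16a1 encodes a collagen that sits on the surface of other fibrils. It read 3.80, 3.72 and 3.63 on the DB#2 arrays, 2.51, 2.18, 2.39 and 2.06 on the DB#1 arrays and 2.14, 1.71 and 2.13 on the DB#3 arrays. On the D arrays it read 3.02, 2.43, 1.87 and 2.13, so that the DB#2 arrays lay above all of these. Col16a1 was higher in DB#2 than in the mean of DB#1 and DB#3 by 1.58 ± 0.30 (adjusted p = 0.00242). It was higher in DB#2 than in D by 1.35 ± 0.33 (adjusted p = 0.0202, and 0.0447 without D replicate 3). The call against D ended without D replicate 4, without any one of the DB#2 arrays and with the mean of a gene's probes, at an adjusted p of up to 0.272 over all alternatives. A second, dimmer Col16a1 probe, read on 6 of the 24 arrays, gave 1.34 for the first difference and 0.15 for the second.

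Col1a2, the alpha 2 chain of type I collagen, read 0.47, 0.59 and 0.36 on the DB#2 arrays and -1.66, -1.60 and -1.47 on the DB#3 arrays. On the DB#1 arrays it read -1.51, -0.43, -0.04 and -0.50, and on the M arrays 0.01, -0.55 and -0.29. The DB#2 arrays lay above all other melanoma arrays, and the DB#3 arrays below all others except DB#1 replicate 1. The difference of DB#2 from the mean of DB#1 and DB#3 was 1.57 ± 0.32 (adjusted p = 0.00362), and DB#3 was -1.30 from M, which was not called. Col1a1, the partner chain, was read on every array of DB#2 only among the melanoma lines, at -3.85, -3.08 and -2.95, and on no DB#3 array; single arrays of M, D and DB#1 read it too. DB#2 was at least 1.99-fold above DB#3 in Col1a1, a bound set by the dimmest probe signal that counts as read on the DB#3 arrays.

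Col5a1, a chain that starts fibrils of type I collagen, read -1.02, 0.19 and -0.04 on the DB#2 arrays. It read 0.98, 0.73, 1.08 and 0.57 on the DB#1 arrays and 0.37, 0.67 and 0.92 on the DB#3 arrays, all above DB#2. The M arrays, at -0.49, 0.01 and 0.45, overlapped DB#2, as did D replicate 1 among the D arrays at -0.21, 0.99, 0.55 and 0.58. The difference from the mean of DB#1 and DB#3 was -1.04 ± 0.29 (adjusted p = 0.0367), and those from M and D, -0.28 and -0.77, were not called. The call was kept in 3 of 10 omissions of a single array and ended without DB#1 replicate 1, 2 or 3, DB#2 replicate 1 or 3, or DB#3 replicate 4 or 5. Without DB#2 replicate 1, the lowest array, the difference was -0.67 (adjusted p = 0.315). Col3a1, Col5a2, Col6a1, Col6a2 and Col12a1 were read on at most 1 melanoma array besides D replicate 3.

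Lysyl oxidases crosslink collagen and elastin. Loxl2 and Loxl3 were read on every array of all lines, and Lox, Loxl1 and Loxl4 throughout none. Loxl3 was between 1.16 and 1.81 on all melanoma arrays and its line means spanned 0.20. Neither was called in any comparison of melanoma lines.

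**Figure D4:**
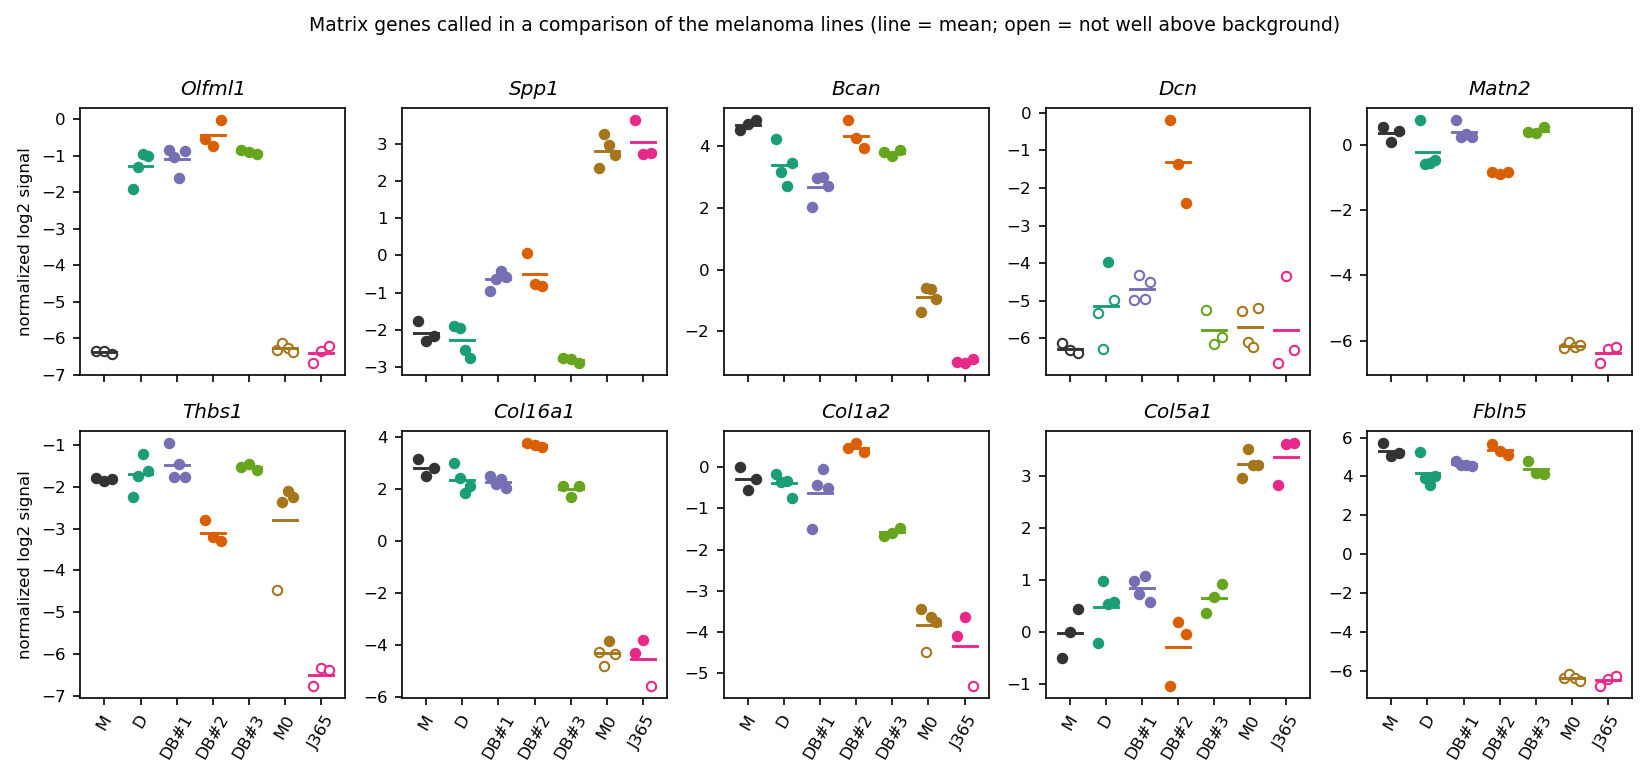
Normalized log2 signal (y axis, with its own scale for each gene) of the 10 matrix genes called between melanoma lines, 1 point per array, by cell line; bars are line means and open points are not well above background. Olfml1 is unread on the M arrays and read on every D and DB array, and Dcn is high in DB#2 alone.

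Among the proteoglycans, Dcn was read throughout DB#2 and no other line. It encodes decorin, a small leucine-rich proteoglycan that binds collagen fibrils and is a typical product of fibroblasts. Its signal on the DB#2 arrays was -0.19, -1.36 and -2.39. On the M arrays it was -6.14, -6.33 and -6.40, on the DB#1 arrays -4.99, -4.31, -4.95 and -4.50, and on the DB#3 arrays -5.25, -6.14 and -5.97, none of them well above background. On the D arrays it was -5.32, -6.29, -3.97 and -4.99, of which only replicate 3 was read. DB#2 therefore stood above every other array, with a wide spread among its own replicates. Dcn in DB#2 was at least 7.87-fold above M (adjusted p = 1.83e-05), at least 8.16-fold above DB#1 and at least 7.85-fold above DB#3, and it was called higher than in D (adjusted p = 0.000161). The size of the difference from D rests on the floor of the signal on the 3 unread D arrays, and ran from 1.48 to 4.37 over the alternatives. The difference from M was 1.53 with normexp correction. The 10 fibroblast and pericyte markers averaged -3.27 to -3.10 on the DB#2 arrays, where 4 of the 10 were read, and -3.27 to -3.03 on the M arrays, where 4 were read as well. Thy1, Dpt, Tcf21 and Twist2 were read on no M, DB#1, DB#2 or DB#3 array, and the mean signal of Pdgfra, read on all 3 M arrays, was -3.15 in M and -5.49 in DB#2, where no array read it. Pdgfrb of the same list went the other way, from -6.32 and unread in M to -2.79 and read on all 3 DB#2 arrays, and it was read on every D, DB#1 and DB#3 array as well. Pdpn, read on every melanoma array, had its highest mean in DB#2, at 4.67, against 4.18 in M and 2.72, 3.14 and 2.91 in D, DB#1 and DB#3. Acta2 and Prrx1, also read on every melanoma array, were 5.22 and -1.87 in DB#2 and 5.24 and -1.40 in M. Fap was unread in M and DB#2. The part of these markers in the Dcn result was not tested.

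Bcan, brevican, is a hyaluronan-binding proteoglycan of the brain matrix. Its signal was 4.52, 4.71 and 4.85 on the M arrays, 4.22, 3.17, 2.71 and 3.44 on the D arrays and 2.03, 2.97, 2.99 and 2.70 on the DB#1 arrays. It was 4.84, 4.25 and 3.93 on the DB#2 arrays and 3.80, 3.68 and 3.88 on the DB#3 arrays. All D, DB#1 and DB#3 arrays lay below all M arrays, and DB#2 overlapped M. The difference of D from M was -1.30 ± 0.31 (adjusted p = 0.0249), and without D replicate 3 it was -1.08 (adjusted p = 0.0563); leaving out D replicate 2 or any one M array also ended this call. In DB#1 the difference was -2.02 ± 0.31 (adjusted p = 0.000248). The difference between DB#3 and M, -0.90, was not called. A second Bcan probe gave -1.18 in D and -1.96 in DB#1. DB#2 exceeded the mean of DB#1 and DB#3 by 1.11 ± 0.28 (adjusted p = 0.0203), a call that ended without DB#2 replicate 1 or 2, at an adjusted p of up to 0.178. The brain markers averaged -3.39 to -2.97 in M, -3.59 to -1.30 in D, where replicate 3 had the highest value, -3.58 to -3.01 in DB#1, -3.68 to -3.26 in DB#2 and -3.42 to -3.18 in DB#3; their part in the Bcan result was not tested.

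Bgn (biglycan) and Vcan (versican) were read on all arrays and were not called between melanoma lines. Lum (lumican) was read on 1 melanoma array, DB#1 replicate 1, at -3.50, and was the only matrix gene not read on D replicate 3.

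Among the elastic fibre genes, Fbln5, fibulin 5, which tethers elastin to cells, was called once. It read 5.27, 3.92, 3.55 and 4.05 on the D arrays and 5.67, 5.29 and 5.10 on the DB#2 arrays, so that D replicate 1 overlapped DB#2. The difference was 1.15 ± 0.30 (adjusted p = 0.0287); without D replicate 3 it was 0.94 (adjusted p = 0.0635). The call was kept in 1 of 7 omissions of a single array, that of D replicate 1, and ended without any other D array, without any DB#2 array and with no filter on dim probes, at an adjusted p of up to 0.701 over all alternatives. Against M, Fbln5 in D differed by -1.13 and was not called (adjusted p = 0.0545), but was with slide as a block (-1.16, adjusted p = 0.0407). Quantile normalization, normexp correction, the percentile over detected probes and the fit on tested genes alone also called it. So did leaving out D replicate 1, or D replicates 1 and 3, and the other alternatives did not. Fbln1, a fibulin of the elastic fibre and basement membrane, was between 2.36 and 3.66 on all melanoma arrays, and Efemp2, fibulin 4, between 2.23 and 3.72. Mfap4 was read on all arrays. Eln (elastin), Fbn1 (fibrillin 1), Fbln2, Efemp1 and Mfap5 were read throughout no line.

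The proteases and their inhibitors were not called between any melanoma lines. Timp2, which inhibits metalloproteinases and takes part in activating pro-Mmp2, was between 6.15 and 7.02 on all melanoma arrays, and its line means spanned 0.25. Mmp14, the membrane metalloproteinase that activates Mmp2, was between 0.95 and 1.79, and Timp1 between 0.91 and 2.44. Timp3, an inhibitor bound to the matrix, varied within lines: it was 1.49 on D replicate 1 and -1.34 to -0.69 on the other D arrays. Mmp9 was read on no melanoma array other than D replicate 3.

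Olfml1, a secreted olfactomedin-like glycoprotein, was the only matrix gene called higher than M in D and in all 3 DB lines. Its signal was -6.34, -6.36 and -6.45 on the M arrays, none of which read it. On the D arrays it was -1.93, -1.30, -0.95 and -1.02, on the DB#1 arrays -0.85, -1.05, -1.60 and -0.88, on the DB#2 arrays -0.53, -0.75 and -0.03, and on the DB#3 arrays -0.85, -0.90 and -0.96. All 14 arrays of these lines read it. The signal was at least 7.96-fold above M in D (adjusted p = 2.15e-11), at least 9.18-fold in DB#1 (adjusted p = 8.44e-12), at least 14.5-fold in DB#2 (adjusted p = 8.36e-12) and at least 10.5-fold in DB#3 (adjusted p = 1.87e-11). With normexp correction the log2 differences were 1.68, 1.86, 2.37 and 1.98, and all were called. Olfml1 was also higher in DB#2 than in D, by 0.86 ± 0.23 (adjusted p = 0.037, and 0.0142 without D replicate 3), a call that ended without D replicate 1 or 2 or DB#2 replicate 1 or 3. It also ended with the percentile over detected probes, no filter on dim probes, no scaling between arrays or the replicate number as a block. In all, 10 of 19 alternatives ended it, at an adjusted p of up to 0.743. Of the 10 fibroblast and pericyte markers, whose mean was -3.27 to -3.03 in M and -3.41 to -2.64 on the DB arrays, Pdgfrb, a receptor of pericytes, went the same way: it was read on 0 of 3 M arrays at a mean of -6.32, and on all arrays of D, DB#1, DB#2 and DB#3 at means of -2.95, -2.10, -2.79 and -2.46. The mean signal of Pdgfra was -3.15 in M and between -5.49 and -3.74 in the other melanoma lines, and Thy1, Dpt, Tcf21 and Twist2 were unread on the M and DB arrays. That of Pdpn was 4.18 in M and 2.72, 3.14, 4.67 and 2.91 in D, DB#1, DB#2 and DB#3. Acta2 and Prrx1 were read on every melanoma array. Among 6 endothelial markers, Vwf was read on 1 of 3 M arrays at a mean of -4.02. It was read on every D, DB#1, DB#2 and DB#3 array, at means of -1.50, -0.82, -0.01 and -0.52. The mean of Pecam1 was -3.27 in M and -3.50 to -2.92 in the other melanoma lines. Cdh5, Kdr, Tek and Tie1 were unread on the M and DB arrays. The relation of these markers to Olfml1 was not tested.

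Matn2, matrilin 2, an adaptor of filamentous networks, was lower in DB#2 than in M and than in the mean of DB#1 and DB#3. It read -0.84, -0.87 and -0.84 on the DB#2 arrays, 0.55, 0.11 and 0.44 on the M arrays, 0.77, 0.24, 0.34 and 0.25 on the DB#1 arrays and 0.42, 0.38 and 0.56 on the DB#3 arrays. The D arrays read 0.77, -0.57, -0.56 and -0.46, so that all but D replicate 1 also lay below every M, DB#1 and DB#3 array. DB#2 was not called against D. Without D replicate 1, Matn2 was called lower in D than in M, DB#1 and DB#3. The DB#2 arrays lay below all others. The difference was -1.21 ± 0.27 from M (adjusted p = 0.0137) and -1.27 ± 0.23 from the mean of DB#1 and DB#3 (adjusted p = 0.0013). Leaving out any one DB#2 array, or M replicate 1 or 3, ended the call against M, at an adjusted p of up to 0.0775. Ecm1, a secreted matrix-binding glycoprotein, and Aebp1, a collagen-binding carboxypeptidase-like protein, were read on every melanoma array and were not called.

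J365 was compared with M0 as the other pair of lines in the series, and 1 of 13 matrix genes tested, Bcan, was called, against 1.25% of all genes. Bcan read -1.37, -0.59, -0.61 and -0.96 on the M0 arrays and -2.98, -3.02 and -2.88 on the J365 arrays, without overlap. The difference was -2.08 ± 0.31 (adjusted p = 0.000297) on the brightest probe. The second Bcan probe gave 0.50, and with the mean of a gene's probes the call was lost. This second probe was well above background on 17 of the 24 arrays and 5.37 lower in M0 than in M. Its values in the myeloid lines may therefore lie at the floor of the signal. The other 12 genes differed by -0.46 to 0.61 and were not called. Thbs1 was not tested here because M0 replicate 4 did not read it: it was -4.46, -2.37, -2.12 and -2.25 on the M0 arrays and -6.75, -6.33 and -6.39 on the J365 arrays, none of which read it. The groups did not overlap.

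Whether the difference between D and M differed from that between J365 and M0 was tested as an interaction. Of 30 matrix genes, Olfml1 and Thbs1 were called (1.75% of all genes called). Olfml1 differed in the melanoma pair and was unread in the myeloid pair, whereas Thbs1 differed by 0.12 between D and M and was lower in J365 than in M0. Olfml1 read -6.68 to -6.14 on all myeloid arrays, unread on each, and its interaction was 5.22 ± 0.33 (adjusted p = 3.23e-09). That of Thbs1 was 3.81 ± 0.57 (adjusted p = 0.000388): the D arrays read -2.24, -1.74, -1.22 and -1.62 and the M arrays -1.79, -1.86 and -1.82, whereas no J365 array read it. Without D replicate 3 both stayed called, at 5.10 and 3.64. No M, M0 or J365 array read Olfml1 and no J365 array read Thbs1, so both values depend on the floor of the signal. For Olfml1 a myeloid difference could not be measured. On the second Thbs1 probe the interaction was 1.07, and with normexp background correction it was 0.96 (adjusted p = 0.116).

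M, the parental melanoma line, and M0, a myeloid line, differed in most matrix genes read. Of 27 tested, 19 were higher in M and 5 lower, beside 56.6% of all genes called. Timp2 read 6.68, 6.53 and 6.89 on the M arrays and -6.55 to -6.19 on the M0 arrays, a difference of 13.07 ± 0.18; this probe was read on no M0 array and a second, dimmer one on 1, so the difference depends on the floor of the signal. Aebp1 read 7.66, 7.32 and 7.64 on the M arrays and was read on no M0 array, at least 3166-fold lower; with normexp correction the log2 difference was 9.64, below that bound. Sparc read 8.71, 8.71 and 8.82 on the M arrays and -3.83 to -3.54 on the M0 arrays, 3 of which read it, a difference of 12.44 ± 0.23. In all, 9 genes read on every M array were read on no M0 array, at least 2.88-fold to 3166-fold higher in M: Fn1, Fbln1, Fbln5, Mmp2, Mmp14, Timp3, Olfml3, Aebp1 and Matn2.

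The 5 genes higher in M0 were Spp1, Mmp9, Col5a1, Vcan and Col18a1. Spp1 read 2.34, 3.27, 2.97 and 2.69 on the M0 arrays, and the difference of M from M0 was -4.88 ± 0.29. Mmp9, gelatinase B, a protease that leukocytes are known to release, read -2.38, -2.07, -2.53 and -2.50 on the M0 arrays and was at least 3.79-fold above M, where no array read it. Col5a1 read 2.95, 3.51, 3.21 and 3.20 on the M0 arrays, and M differed by -3.23 ± 0.32. For Spp1, Mmp9 and Col5a1 the M0 arrays did not overlap the M arrays. Those of Col18a1 did, since M replicate 1 was -2.89 and M0 replicate 3 was -3.14. M differed from M0 by -1.14 in Col18a1 and -1.20 in Vcan. The call ended in 5 of 17 alternatives for Col18a1 and in 3 of 18 for Vcan. Loxl2, Bgn and Mfap4 were tested and not called (differences -0.88, -0.28 and 0.18).

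**Figure D5:**
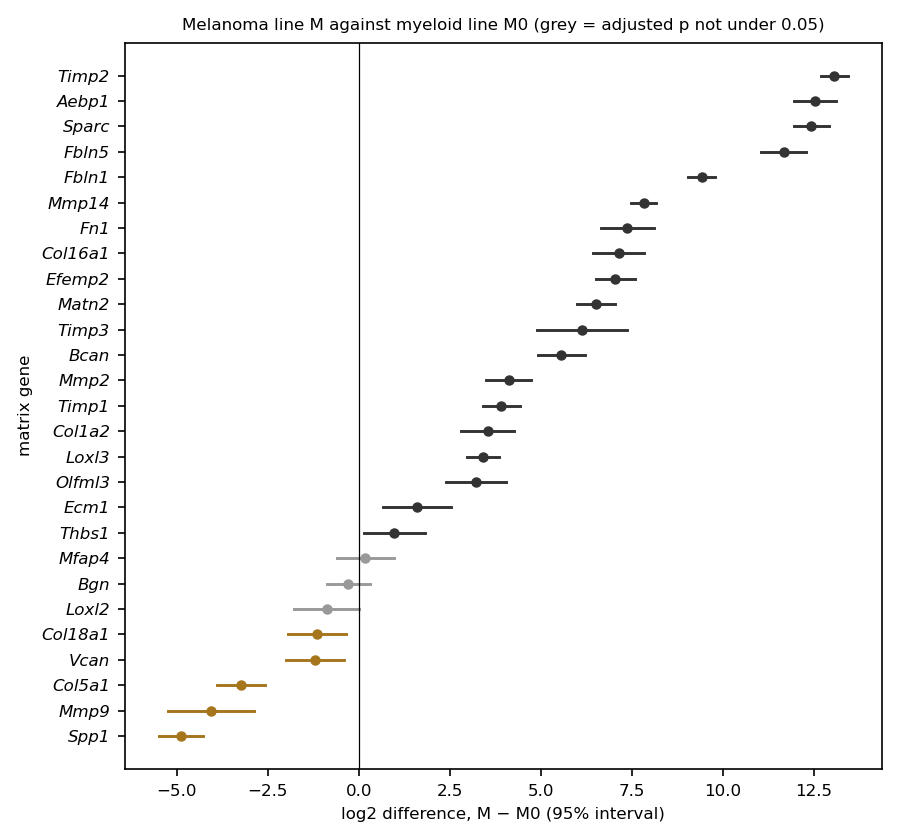
Log2 difference of M from M0 (x axis) with 95% intervals for the 27 matrix genes tested (y axis); black, called higher in M; brown, called higher in M0; grey, not called. The differences run from -4.88 for Spp1 to 13.07 for Timp2.

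A further 150 matrix and matrix-remodelling genes, such as basement membrane collagens, laminins, link proteins and ADAM proteases, were listed beside the 52. In D against M, 6 of 71 tested were higher and 2 lower (2.22% of all genes called). The 3 with the largest differences were read on no M array and on every D array: Hapln1, a link protein that ties hyaluronan to proteoglycans such as Bcan, was at least 9.11-fold higher in D, Emilin1, an elastic fibre glycoprotein, at least 8.38-fold, and Col4a1, a basement membrane collagen, at least 9.19-fold. Mmp16, a membrane metalloproteinase, was lower (log2 difference -1.20), as was Prelp, a small leucine-rich proteoglycan (-0.97). In DB#1 10 of 75 were higher and 3 lower (3.01% of all genes called), in DB#2 6 of 76 and 3 (2.68%), and in DB#3 9 of 74 and 2 (2.33%). Emilin1 was at least 15.9-fold, 22.1-fold and 13.7-fold above M in DB#1, DB#2 and DB#3. Hapln1 was at least 50.8-fold above M in DB#1 and 32.1-fold in DB#3, and was called in those and not in DB#2, where 1 of 3 arrays read it. Col4a1 was called in the same lines, at least 8.64-fold above M in DB#3, and no DB#2 array read it. In DB#2 against the mean of DB#1 and DB#3, 5 of 77 were higher and 10 lower (5.37% of all genes called). Among the lower was Hapln1, read on 1 of 3 DB#2 arrays at -4.00 and on all DB#1 and DB#3 arrays at 0.16 or more. Col4a1, at least 12.1-fold below DB#1 and 9.70-fold below DB#3, and Lamb1, a laminin chain (log2 difference -3.40), were lower too. Ccn3, a matricellular protein (2.74), Plau, the urokinase protease (1.99), and Mmp16 (1.47) were higher.

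Against D, 1 of 72 listed genes was higher in DB#1 (0.371% of all genes called). In DB#2 6 of 77 were higher and 9 lower (4.67%), and none of 70 was called in DB#3 (0.27%). In J365 against M0, Col5a3, a collagen V chain read on no M0 array, alone of 51 was called, at least 2.83-fold higher (1.25% of all genes called). In the interaction, 5 of 83 were higher and 1 lower (1.75% of all genes called), and in M against M0, 40 of 78 were higher and 21 lower (56.6%).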

How the data were processed

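The authors deposited a scanner table per array (Agilent Feature Extraction 10.7.3.1, cyanine 3), whose intensity values were background-corrected, with a surrogate for low signals, and not scaled between arrays. All 1511424 intensity values of the deposited series table equalled these. The study's methods name GeneSpring and no test.

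Outlier spots were left out, spots of a probe averaged, and log2 intensity reduced by the array's 75th percentile. Of 56488 probes, 32917 were named by accession through a RefSeq table (GRCm38.p6). A gene's brightest probe was used. limma 3.58.1 (lmFit, eBayes; R 4.3.3) was fitted to all 24 arrays and 45547 names with 1 coefficient for each line (residual degrees of freedom, 17), with Benjamini-Hochberg adjustment within a comparison. The step was tested on simulated data. Intervals are 95%, and the number of arrays limits the precision. Where no array of a line read a gene, the fold is a lower bound against the lowest signal well above background. Values on every array are given, by size of difference, for up to 5 called genes per direction (comparisons with M, and J365 with M0) or 3 (others). Genes, lists and comparisons were chosen with earlier results of these data known. The unnumbered M0 and J365 samples are called replicate 4. Alternatives were other scalings, normexp on median signals (offset 50; the files hold no mean signal), other probe, filter and array choices, slide or replicate blocks, and leaving out each array. The fit on tested genes alone and the one without D replicates 1 and 3 were added after the data were seen.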

Additional observations from a re-analysis of the deposited data

Results flagged for a closer look

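In lines with 4 arrays, 30 sets of 4 values were examined (10 genes in 3 lines), and chance sets about 1 in 20 such sets apart. Matn2 on D replicate 1 was 0.77, far from the nearest D array at -0.46. This array had the lowest share of probes well above background, 43.6%, and the highest negative-control signal, 36.1. Thbs1 on M0 replicate 4 was -4.46, with the nearest M0 array at -2.37.

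In 2 genes the difference between D and M differed from that between J365 and M0 by a test of the interaction itself. The interaction was 5.22 for Olfml1, which no M, M0 or J365 array read, and 3.81 for Thbs1, which no J365 array read. Both values depend on the floor of the signal, and a myeloid difference in Olfml1 could not be measured. With normexp background correction the Thbs1 interaction was 0.96 (limma, adjusted p = 0.116).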

How the results depend on the processing

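The numbers of matrix genes called were small and moved with several choices. Fitted to no arrays but those of the lines compared, limma called 1 in D against M, 3 in DB#3 against M, and 0 in DB#1 and in DB#2 against D. A strict filter, which keeps genes read on every array of all lines compared, left 1 in D, 2 in DB#2 and 0 in DB#3 against M, 7 in M against M0 and 0 in the interaction, since genes unread in a line drop out. Normexp correction gave 3 in DB#3 against M, 10 in DB#2 against D and 1 in the interaction. In DB#3 against M, the percentile over detected probes, the mean of a gene's probes and quantile normalization each gave 2. Quantile normalization gave 0 in DB#1 against D. Without a filter, 3 were called in DB#2 against D and 2 in J365 against M0, and with the mean of a gene's probes 0 were called in the latter. With slide as a block, 8 were called in DB#2 against D. Without D replicates 1 and 3, 4 were called in D against M, 2 in DB#1, 1 in DB#3 against D and 4 in the interaction. Except for the strict filter, the cause was not tested.

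With the replicate number as a block, 5 were called in DB#2 against the mean of DB#1 and DB#3, without Col1a2, Col5a1 and Bcan; other counts stayed within 1.5 times, though Bcan in D against M and Col16a1 and Olfml1 in DB#2 against D, and Thbs1 in M against M0 were not called, and Thbs2 in D and DB#1 against M and Thbs1 in DB#2 against M and against D were added. Of 49 pairs of arrays with the same number in different lines, 23 had deviations correlated above 0.1. Their mean was 0.08, with a range of -0.80 to 0.91, beside -0.25 for pairs sharing neither slide nor number. Some pairs with the same number also shared a slide, so these values cannot tell whether the numbers pair the arrays.

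Leaving out 1 array at a time gave 1 to 5 calls in D against M, 3 to 3 in DB#1, 3 to 4 in DB#2 and 1 to 1 in DB#3 against M, 1 to 2, 2 to 8 and 0 to 1 in DB#1, DB#2 and DB#3 against D, 5 to 8 in DB#2 against DB#1 and DB#3, 1 to 2 in J365 against M0, 21 to 25 in M against M0 and 2 to 3 in the interaction. The highest counts in D against M (5) and DB#2 against D (8) came without D replicate 1, which added Fbln5, Ecm1 and Matn2 to the first; without M replicate 1, 2 or 3 or D replicate 2, Bcan left the first, and without DB#2 replicate 1 or 3 the second fell to 2. Without M0 replicate 4, Thbs1 joined Bcan in J365 against M0. No called difference of a single gene changed sign under any alternative run.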
